A study of Mus musculus with 12 samples.

Results

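The step described here is that from 1 to 3 cell divisions in mouse B cells stimulated with lipopolysaccharide (LPS), the bacterial cell wall component read by Toll-like receptor 4. It rests on 4 of the 12 RNA libraries of the study: the 2 libraries of cells that had divided once (Div1) set against the 2 of cells that had divided 3 times (Div3). Within each group 1 library came from host 196 and 1 from host 197, and the groups were compared within hosts. Genes with 10 or more counts in both libraries of either group were used, which left 11298 of 21761 genes.

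All groups shared the same treatment and origin. Splenic B220+ CD43- B cells of naive donor mice were loaded with a division dye (CFSE or CTV) and moved into uMT hosts, which lack B cells of their own. LPS was given after a night of rest, and on day 3 portions of 40000 cells were sorted by dye content. The samples are labelled as spleen of 8 weeks old female mice of the strain B6.SJL-Ptprca Pepcb/BoyJ, whereas the series text gives the donors as C57/BL6J, and no genotype or treatment differed between Div1 and Div3. Groups at 0 (Div0) and 5 (Div5) divisions are used below as neighbours of the step, and the groups at 8 divisions or more entered the models only. Since the division number is read from dye loss at a single time, Div1 and Div3 are cells of the same host and day that differ in how often they had divided.

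B cells that meet LPS grow, enter the cell cycle and divide several times before some of them become antibody-secreting plasma cells. The change of fate is governed by opposed transcription factors: Pax5, Bach2 and Bcl6 hold the B cell programme, while Irf4, Blimp-1 (Prdm1) and Xbp1 drive secretion. Dividing B cells also change their chemokine receptors and integrins, which set where in the spleen they reside.

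Depth was alike: gene counts ran from 11744061 to 14961666 over the 4 libraries, and spike-ins made up 2.35 to 3.22% of gene and spike-in counts together. The 10 B cell markers together stood at 16200 to 17600 CPM (counts scaled to a fixed library size, with TMM factors) in Div1 and 16600 to 17900 in Div3. Among markers of other cells, T cell genes summed to 203 to 221 CPM in these 4 libraries, mostly from Cd2 (144 to 167) and Lck (47.4 to 54.4). Stromal and endothelial genes summed to 293 to 302 CPM, of which Pecam1 alone made 283 to 294. Natural killer genes summed to 11 to 15.5 CPM, of which Prf1 alone made 9.63 to 13.7. Erythroid genes summed to 3.61 to 16.7 CPM and platelet genes to 9.1 to 18.5. Dendritic cell genes summed to 380 and 386 CPM in Div1 and to 544 and 543 CPM in Div3 (hosts 196 and 197), macrophage and monocyte genes to 110 and 114 and to 93.5 and 140 CPM, and neutrophil genes to 6.58 and 78.9 and to 7.63 and 25.1 CPM, and these values are taken up beside the results they touch. With 2 hosts, and spread shared over the 6 groups, the p-values speak for the spread between these libraries only.

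The size of the mRNA pool changed little at this step. In host 196 a cell held 42830 mRNAs after 1 division and 43592 after 3, and in host 197 it held 59953 and 53533. The ratio of Div3 to Div1 was thus 1.02 in host 196 and 0.893 in host 197, a mean of 0.955 ± 0.0883 (SD, n = 2), so the hosts lay on either side of no change. The step before it, Div0 to Div1, had a ratio of 1.67 ± 0.158, and the step after it, Div3 to Div5, one of 1.5 ± 0.319. Host 197 was above host 196 in Div0, Div1 and Div3 and below it in Div5. The ratio is given without a test of its own, and an exact permutation test of 2 against 2 libraries cannot go below p = 0.333.

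**Figure D1:**
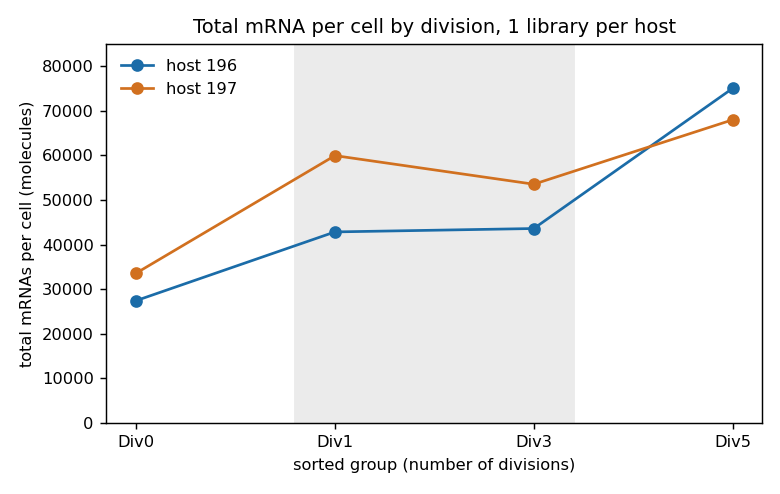
Total mRNAs per cell (y axis, molecules) by sorted group (x axis), 1 point per library and 1 line per host. Between Div1 and Div3 (shaded) the line of host 196 goes from 42830 to 43592 and that of host 197 from 59953 to 53533, while both hosts rise on the steps before and after.

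Beneath that level total, 768 of the 11298 genes (6.8%) differed between Div3 and Div1 (edgeR quasi-likelihood test with the host as a block, Benjamini-Hochberg adjusted p under 0.05). Of these, 391 (3.46%) were higher in Div3 and 377 (3.34%) lower, and 767 of the 768 had the same sign in both hosts. Changes were small: 95 genes (0.841%) were called with an absolute log2 fold change of 1 or more, 59 up (0.522%) and 36 down (0.319%), and 90% of all tested genes lay between -0.36 and 0.36. The same fit called 1727 genes (15.3%) from Div0 to Div1 and 3985 (35.3%) from Div3 to Div5. Without the host block 421 genes (3.73%) were called, 233 higher (2.06%) and 188 lower (1.66%). The count was also sensitive to single libraries: leaving out a Div1 library gave 343 (host 196) or 384 (host 197), and leaving out a Div3 library gave 439 (host 196) or 306 (host 197). In all 4 of these fits 194 of the 768 stayed called, 121 higher and 73 lower.

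**Figure D2:**
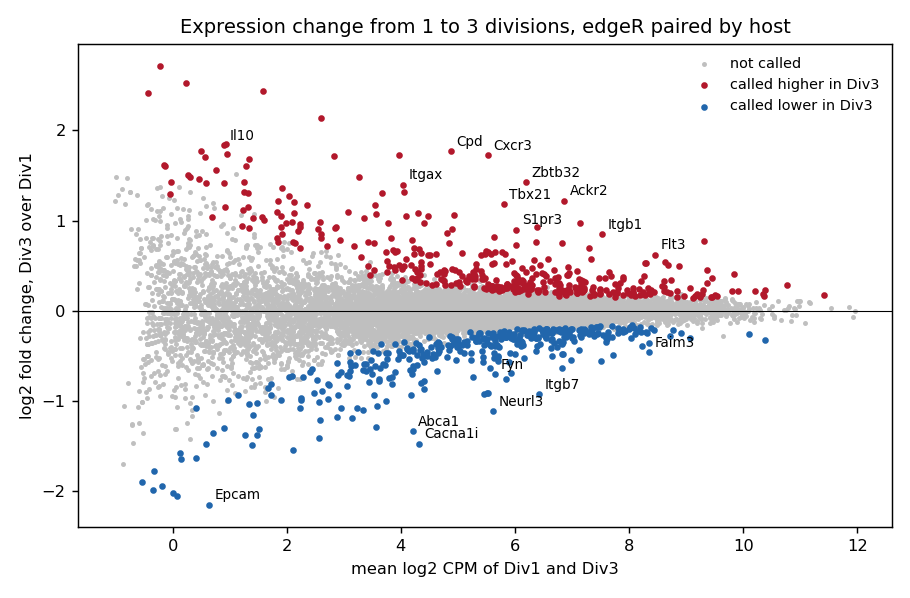
Log2 fold change of Div3 over Div1 (y axis) against mean log2 CPM of both groups (x axis) for the 11298 tested genes, with the 391 called higher in red, the 377 called lower in blue and gene names beside a few. The calls spread over the whole range of expression, and the changes beyond 1 on the log2 scale thin out at high expression.

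Per cell, fewer genes passed. On log2 of (mRNAs per cell + 0.1), limma with the same design called 102 genes (0.903%), 40 higher (0.354%) and 62 lower (0.549%). Of these, 90 were also called relative to all genes, in the same direction, while 678 genes were called on the relative scale only and 12 per cell only. The median gene stood at 0 on the relative scale and at -0.07 per cell, so a relative rise of 0.07 is no change in molecules per cell for the typical gene. Of the 95 larger relative changes, 58 were called per cell. Scaling the counts to the spike-ins in edgeR gave 108 calls (0.956%), 50 higher (0.443%) and 58 lower (0.513%). The per-cell count was 19 without Div3 of host 196 and 20 without Div3 of host 197, against 99 and 72 without Div1 of host 196 and of host 197.

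**Figure D3:**
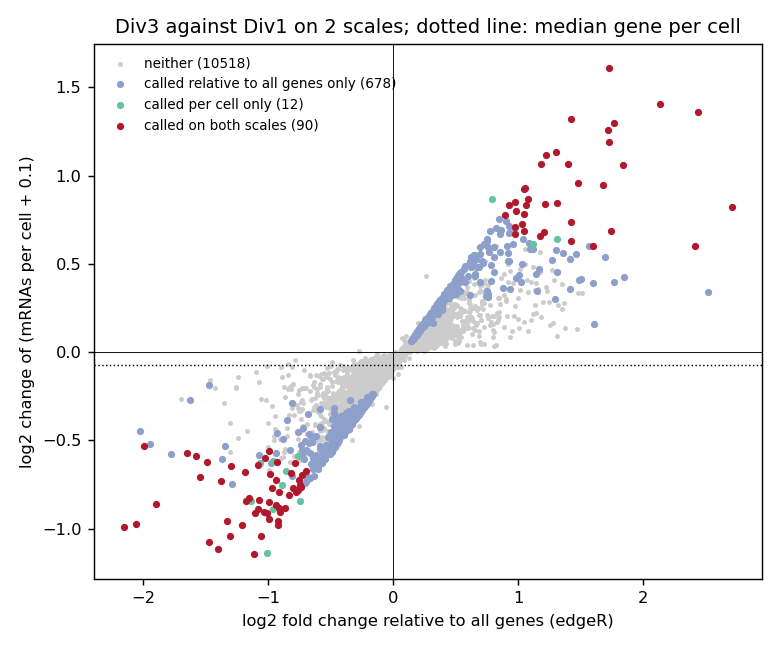
Each gene's change from Div1 to Div3 relative to all genes (x axis, edgeR log2 fold change) and per cell (y axis, log2 of mRNAs per cell + 0.1), with 90 genes called on both scales in red, 678 on the relative scale only in blue and 12 per cell only in green. The cloud passes below the origin by the per-cell median of -0.07, drawn as a dotted line.

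Receptors that steer cell migration included some of the steepest rises. Cxcr3, the receptor for the interferon-induced chemokines Cxcl9, Cxcl10 and Cxcl11, stood at 18.4 CPM (host 196) and 23.9 CPM (host 197) in Div1 and at 66.7 and 74.3 CPM in Div3. Both Div3 libraries lay far above both Div1 libraries. Here and below, such separation is favoured in genes picked for a large change or a call, and its share over all tested genes was not counted. The log2 change was 1.73 ± 0.10 (SE, adjusted p = 3.16e-09), a 3.31-fold rise. Per cell, Cxcr3 went from 1.29 and 2.38 mRNAs to 4.76 and 6.53 (log2 change 1.61, adjusted p = 1.39e-09), the largest rise per cell among the 102 calls. In bulk samples a larger share of Cxcr3-expressing cells and more Cxcr3 mRNA in each cell cannot be told apart, and the same holds for every gene below.

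The 250 bases upstream of the RefSeq start site (GRCm38.p6) are shown for 2 genes that rose and 2 that fell on both scales, 5′ to 3′ on the gene's strand, with each CG dinucleotide, the site of DNA methylation in mammals, in capitals. They show how far the starts of these genes differ in CpG content.
Cxcr3 (chrX:101734148-101734397, strand minus): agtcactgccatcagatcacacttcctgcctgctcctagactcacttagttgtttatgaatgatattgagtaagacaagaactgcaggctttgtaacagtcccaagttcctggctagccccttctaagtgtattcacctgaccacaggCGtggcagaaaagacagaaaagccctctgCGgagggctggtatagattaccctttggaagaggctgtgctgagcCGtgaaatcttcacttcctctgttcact
Itgax (chr7:128129300-128129549, strand plus): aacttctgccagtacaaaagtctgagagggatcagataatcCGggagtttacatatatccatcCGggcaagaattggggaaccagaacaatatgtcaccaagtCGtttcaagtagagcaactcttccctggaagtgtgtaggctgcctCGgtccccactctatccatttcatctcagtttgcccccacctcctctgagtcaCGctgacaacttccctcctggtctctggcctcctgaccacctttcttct
Neurl3 (chr1:36273426-36273675, strand minus): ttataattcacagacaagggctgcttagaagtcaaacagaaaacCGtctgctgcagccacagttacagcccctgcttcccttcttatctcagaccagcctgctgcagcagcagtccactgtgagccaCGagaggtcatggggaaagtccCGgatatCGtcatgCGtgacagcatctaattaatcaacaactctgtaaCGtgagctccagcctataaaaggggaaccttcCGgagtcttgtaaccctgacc
Abca1 (chr4:53159896-53160145, strand minus): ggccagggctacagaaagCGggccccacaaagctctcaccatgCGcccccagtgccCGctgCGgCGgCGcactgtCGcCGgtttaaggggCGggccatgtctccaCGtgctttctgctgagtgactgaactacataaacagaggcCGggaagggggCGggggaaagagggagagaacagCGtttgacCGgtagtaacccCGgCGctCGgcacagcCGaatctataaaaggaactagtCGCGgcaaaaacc
Cxcr3 held 3 CG dinucleotides in this stretch and Itgax held 5, Neurl3 held 7 and Abca1 held 20. Over the 9056 tested genes with a RefSeq window the median was 16 (quartiles 10 and 22). No comparison of the called genes as sets is given, because 78.3% of those called higher and 76.9% of those called lower have a window, and under 80% makes such a check void.

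Ackr2, an atypical receptor that takes up and degrades inflammatory chemokines without signalling through G proteins, rose at a higher level. It stood at 69.1 and 70.9 CPM in Div1 and at 162 and 164 CPM in Div3 (hosts 196 and 197), so that the hosts were nearly alike within each group. Its log2 change was 1.22 ± 0.06 (adjusted p = 1.21e-09), and per cell it went from 2.70 and 3.92 to 6.43 and 8.00 mRNAs (adjusted p = 0.00017). S1pr3, a sphingosine 1-phosphate receptor of marginal zone B cells, had 42.0 and 48.8 CPM in Div1 and 81.9 and 87.5 CPM in Div3 (log2 change 0.90 ± 0.07, adjusted p = 4.1e-08). Again the lower Div3 library exceeded the higher Div1 library.

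Of 17 tested members of the list of chemokine and migration receptors, 5 rose and 1 fell. The median log2 change was -0.04 against 0 for all genes. That is 35.3% called, against 6.8% over all tested genes (3.46% higher and 3.34% lower). This list and those below were written with earlier results of these data known. Gpr34, a receptor for lysophosphatidylserine, rose by a log2 of 0.70 ± 0.12 (adjusted p = 0.0012), from 16.4 and 12.2 to 28.3 and 18.3 CPM. That call was lost without Div3 of host 196 (adjusted p = 0.0595). Cxcr4, which holds B cells near Cxcl12, moved the other way, from 16.9 and 20.0 CPM to 9.61 and 13.3 CPM (log2 change -0.68 ± 0.14, adjusted p = 0.00384). It missed the threshold in the fits that left out Div3 of host 196 (0.0578) or, in host 197, Div1 (0.071). Among the 17, 2 were called per cell, both higher.

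Integrins, the paired adhesion receptors, changed subunit by subunit. Itgax, the alpha subunit known as CD11c, rose from 7.93 and 10.2 CPM to 22.3 and 25.3 CPM (log2 change 1.40 ± 0.11, adjusted p = 8.6e-08), and per cell from 0.208 and 0.378 to 0.595 and 0.830 mRNAs (adjusted p = 9.2e-05). Itgb1, the common beta 1 subunit, rose from 120 and 143 CPM to 226 and 249 CPM (log2 change 0.85 ± 0.05, adjusted p = 7.34e-09). For both subunits the groups did not overlap. Itgb7, which pairs with alpha 4 in homing to the gut, fell from 121 and 104 CPM to 62.9 and 55.5 CPM (log2 change -0.92 ± 0.07, adjusted p = 2.95e-08), and per cell from 5.11 and 6.22 to 2.70 and 2.93 mRNAs (adjusted p = 0.00258).

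Among 25 tested integrins and adhesion genes 6 rose and 3 fell (36% called against 6.8% over all genes), and the median was -0.02. Itgam, the CD11b alpha subunit encoded next to Itgax, had 11.7 and 18.6 CPM in Div1 and 19.4 and 29.7 CPM in Div3. Here the Div1 library of host 197 came close to the Div3 library of host 196, and the rise shows within hosts (log2 change 0.69 ± 0.13, adjusted p = 0.00188, but 0.0631 without Div3 of host 197). Both genes are also listed as markers of macrophages or dendritic cells. The 18 macrophage and monocyte markers, Itgam among them, summed to 110 and 114 CPM in Div1 and to 93.5 and 140 CPM in Div3, with 2 of 18 higher in Div3 in host 196 and 13 of 18 in host 197. Cd68, the lysosomal glycoprotein, stood at 14.3 and 14.4 CPM in Div1 and 18.6 and 18.1 CPM in Div3 (adjusted p = 0.0839). Mrc1, the mannose receptor, stood at 2.45 and 1.40 CPM in Div1 and 1.68 and 4.22 CPM in Div3, so that it was lower in Div3 in host 196 and higher in host 197, as was the sum. Of 15 of these markers tested, Itgam rose and Lyz2, the macrophage lysozyme, fell (log2 change -0.83 ± 0.16, adjusted p = 0.00241, lost without Div1 or Div3 of host 197 at 0.0823 and 0.117). Dendritic cell markers summed to 380 to 386 CPM in Div1 and 543 to 544 CPM in Div3, of which Flt3 alone made 273 to 279 and 417 to 433 CPM. Zbtb46, a transcription factor of dendritic cells, stood at 6.41 and 7.49 CPM in Div1 and 8.92 and 7.12 CPM in Div3, and Clec9a, a receptor of one of their subsets, had 0 counts in all 4 libraries. Whether other cells had a part in the Itgax, Itgam and Flt3 values was not tested.

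The genes named for their large rises included 3 that encode transcription factors. Tbx21, the T-box factor T-bet that activates Cxcr3 in lymphocytes, went from 29.3 and 39.0 CPM to 69.7 and 85.9 CPM (log2 change 1.18 ± 0.10, adjusted p = 1.58e-07). Zbtb32, a zinc finger repressor, went from 30.0 and 48.7 CPM to 80.5 and 133 CPM (1.42 ± 0.13, adjusted p = 6.5e-07). Bhlhe41, a repressor used by B-1 cells, went from 9.11 and 13.0 CPM to 20.8 and 25.3 CPM (1.05 ± 0.16, adjusted p = 0.000227). In each of them host 197 was the higher of the 2 hosts in both groups, and neither Div1 library reached the lower Div3 library. All were also called per cell: Tbx21 from 1.30 and 2.45 to 3.13 and 4.76 mRNAs, Zbtb32 from 1.82 and 4.19 to 4.95 and 10, and Bhlhe41 from 0.725 and 1.47 to 1.68 and 2.52 (adjusted p = 0.000494, 3.35e-06 and 0.00579).

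Zbtb32, Bhlhe41 and S1pr3 belong to the list of marginal zone and B1 cell genes, in which 7 of 20 tested members rose and 2 fell, with a median of 0.10. Its share of calls was 45%, against 6.8% over all genes, but the list was written with earlier results of these data known. Cd300lf, an inhibitory receptor for lipids, rose within it from 44.9 and 39.6 CPM to 73.5 and 59.6 CPM (log2 change 0.65 ± 0.06, adjusted p = 1.97e-06). The 2 that fell were Myof, from 85.0 and 83.3 CPM to 61.9 and 55.6 CPM (-0.52 ± 0.07, adjusted p = 4.14e-05), and Plac8 (-0.25 ± 0.07, adjusted p = 0.0285). Among the members not called were Cd9 (0.09), Mzb1 (0.04), Dtx1 (-0.0009), Cd1d1 (-0.13) and S1pr1 (-0.17). Of the 9 calls, 7 stayed in every fit with 1 library left out (6 higher, 1 lower), and 3 members were called higher per cell.

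The germinal centre list had 4 of 13 tested members higher and 1 lower (38.5% called against 6.8% over all genes, median 0.23). Fas, the death receptor of activated B cells, rose from 32.0 and 33.2 CPM to 51.0 and 43.3 CPM (log2 change 0.52 ± 0.08, adjusted p = 0.000227). Mef2b, a transcription factor of germinal centre B cells, rose from 16.8 and 21.8 CPM to 27.8 and 32.2 CPM (0.63 ± 0.11, adjusted p = 0.00078). Plxnb2, a semaphorin receptor, rose by 0.42 ± 0.08 (adjusted p = 0.00283), a call lost without Div1 of host 196 (0.0565) or Div3 of host 197 (0.105). Bcl6, the repressor that defines germinal centre cells, fell slightly, from 68.0 and 60.8 CPM to 55.1 and 54.2 CPM (log2 change -0.23 ± 0.06, adjusted p = 0.0238). No fit with 1 library left out kept the Bcl6 call (0.067 to 0.258).

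Among the core factors of B cell and plasma cell fate, Pax5, Prdm1 and Xbp1 were not called, and Bach2, Irf4 and Bcl6 (above) were called lower. Pax5 was at 382 and 382 CPM in Div1 and 392 and 375 CPM in Div3 (log2 change 0.00 ± 0.05, adjusted p = 0.979). Prdm1 stood at 4.30 and 5.88 CPM in Div1 and 4.65 and 8.90 CPM in Div3 (0.42 ± 0.27, adjusted p = 0.445), with the groups overlapping. Xbp1 (0.08 ± 0.07, adjusted p = 0.605) and Sdc1, which encodes CD138 (-0.45 ± 0.41, adjusted p = 0.635), did not pass either. Bach2, a repressor of Prdm1, fell from 125 and 119 CPM to 94.4 and 99.4 CPM (-0.33 ± 0.06, adjusted p = 0.0015, but 0.0502 without Div1 of host 196). Irf4 fell from 212 and 223 CPM to 175 and 174 CPM (-0.32 ± 0.06, adjusted p = 0.00156, but 0.0537 without Div3 of host 197). Both Div3 libraries were below both Div1 libraries for Bach2 and for Irf4.

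In the B cell identity list 3 of 29 tested members rose and 5 fell (27.6% called against 6.8% over all genes, median -0.03). Faim3, the Fc receptor for IgM, fell most, from 392 and 363 CPM to 283 and 266 CPM (log2 change -0.46 ± 0.06, adjusted p = 9.09e-05), and was the sole member of the 8 to stay called in every fit with 1 library left out. Cr2, complement receptor 2, went from 1639.7 and 1333.6 CPM to 1348.6 and 1032.9 CPM (-0.32 ± 0.06, adjusted p = 0.00313). Its groups overlap across hosts and separate only within them, and the call was lost without Div3 of host 197 (0.114). Fcer2a, the low affinity IgE receptor CD23, fell by 0.26 (adjusted p = 0.0363), and each fit with 1 library left out lost it (0.0673 to 0.315). Ptprc, the CD45 phosphatase, had a log2 change of 0.11 ± 0.05 (adjusted p = 0.255).

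The plasma cell list had 2 of 24 tested members higher and 4 lower (25% called against 6.8% over all genes, median -0.08). Those that rose were Bhlhe41, above, and Derl3, a channel component of protein disposal from the endoplasmic reticulum (ER), which went from 13.2 and 18.5 CPM to 22.5 and 27.4 CPM (0.65 ± 0.12, adjusted p = 0.0013). Igj, the joining chain of secreted IgM, went from 21.7 and 25.1 CPM to 12.7 and 17.9 CPM (-0.60 ± 0.18, adjusted p = 0.0496), and Cd93, a receptor kept on long-lived plasma cells, from 15.1 and 12 to 7.17 and 9.76 CPM (-0.65 ± 0.17, adjusted p = 0.022). The Igj call was lost in every fit with 1 library left out (0.0731 to 0.283), and that of Cd93 without Div1 of host 196 (0.274) or Div3 of host 196 (0.251). Of the 66 tested genes of the unfolded protein response and ER secretion, 2 rose, Derl3 and the stress sensor Atf6 (0.18 ± 0.05, adjusted p = 0.0288), and none fell. That is 3.03% called, below the 6.8% over all genes. Atf6 was called in none of the fits with 1 library left out (0.0632 to 0.387), and the list median of 0.04 turned to -0.04 per cell.

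Genes of B cell receptor signalling moved in both directions, 7 of 39 higher and 5 lower (30.8% called against 6.8% over all genes, median 0.02). Within phosphoinositide 3-kinase gamma a regulatory subunit, Pik3r6, rose while the catalytic subunit, Pik3cg, fell. Pik3r6 went from 4.47 and 5.48 CPM to 16.2 and 12.3 CPM (log2 change 1.48 ± 0.15, adjusted p = 3.49e-06). Pik3cg went from 165 and 133 CPM to 117 and 87.6 CPM (-0.55 ± 0.10, adjusted p = 0.00119, but 0.0609 without Div3 of host 197). The Src family kinase Fyn fell from 62.7 and 62.4 CPM to 37.6 and 39.2 CPM (-0.70 ± 0.08, adjusted p = 6.12e-06), with both hosts alike in each group. Vav3, a guanine nucleotide exchange factor, fell by 0.45 (adjusted p = 0.0368), a call that no fit with 1 library left out kept (0.153 to 0.267).

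Costimulatory ligands split as well, with 3 of 27 higher and 4 lower (25.9% called against 6.8% over all genes, median -0.04). Both ligands of the inhibitory receptor PD-1, which lie side by side in the genome, fell: Pdcd1lg2 from 28.2 and 23.5 CPM to 16.2 and 13.5 CPM (-0.80 ± 0.10, adjusted p = 3.54e-05), and Cd274 from 97.7 and 98.5 CPM to 75.1 and 77.3 CPM (-0.36 ± 0.05, adjusted p = 0.000185). Cd80, a ligand of CD28, rose from 6.91 and 8.89 CPM to 13.6 in both hosts (0.76 ± 0.13, adjusted p = 0.00079). For all of these the Div1 and Div3 libraries did not overlap. Pdcd1lg2 was also called per cell, from 0.855 and 1.01 to 0.5 and 0.51 mRNAs (adjusted p = 0.0193).

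Of 37 tested cytokines and cytokine receptors, 7 rose and 4 fell (29.7% called against 6.8% over all genes, median -0.02). Il10, the suppressive cytokine made by regulatory B cells, rose from 0.675 and 0.936 CPM to 2.75 and 3.10 CPM, which is 8 and 14 counts against 36 and 47. It passed the count filter through Div3 alone and is among the 7 that rose. The log2 change was 1.84 ± 0.36 (adjusted p = 0.00323), with an adjusted p of 0.0538 without Div1 of host 197. Il2rb, a chain of the interleukin-2 receptor, went from 3.79 and 4.95 to 7.40 and 8.05 CPM (0.81 ± 0.17, adjusted p = 0.0048, but 0.0635 without Div1 of host 196). The chemokine Ccl22 went from 2.11 and 3.14 to 5.57 and 5.01 CPM (0.98 ± 0.22, adjusted p = 0.00985). That call was lost without Div1 of host 196 (0.238), Div3 of host 196 (0.0942) or Div3 of host 197 (0.0636). Cxcl10, a ligand of Cxcr3, rose by 0.71 ± 0.17 (adjusted p = 0.0126), which was lost without Div1 (0.218) or Div3 (0.201) of host 197.

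**Figure D4:**
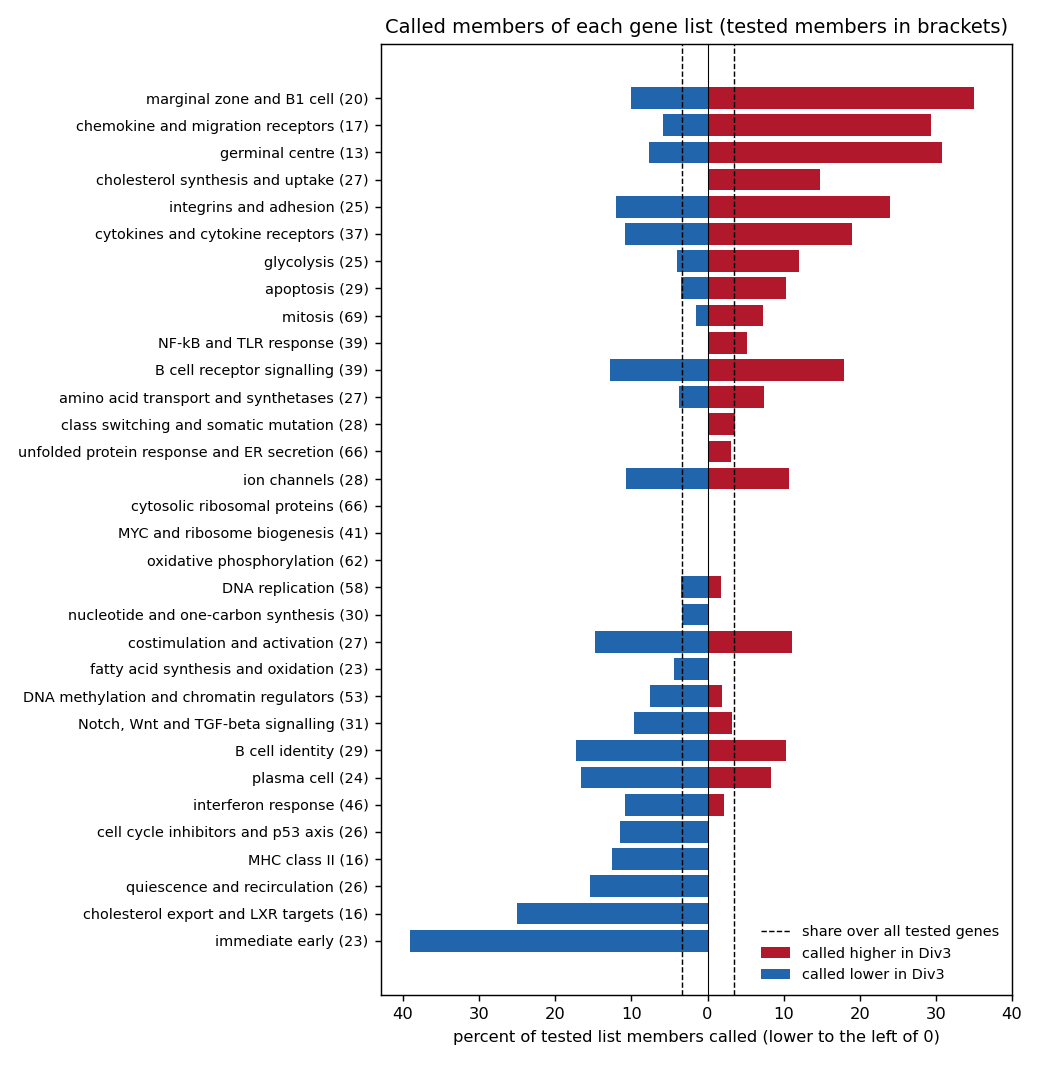
Percent of the tested members of each gene list called higher (red, to the right) or lower (blue, to the left) in Div3, with the number tested in brackets and dashed lines at the shares over all tested genes (3.46 and 3.34%). The bars extend farthest to the right for marginal zone and B1 cell genes and farthest to the left for immediate early genes, and 3 lists have no bar.

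Immediate early genes, which respond within minutes to receptor signals, were the list with most falls: 9 of 23 fell and 0 rose, with a median of -0.20, and 20 of the 23 had a negative log2 change. The called share was 39.1%, against 6.8% over all genes. Zfp36, which destabilises cytokine mRNAs, fell from 339 and 343 CPM to 249 and 272 CPM (-0.39 ± 0.05, adjusted p = 1.89e-05). Dusp4, a phosphatase of MAP kinases, fell from 15.3 and 14.8 CPM to 8.16 and 7.65 CPM (-0.93 ± 0.14, adjusted p = 0.000194). Both Div3 libraries were below both Div1 libraries in each. Dusp1 (-0.47 ± 0.11, adjusted p = 0.00985) and Ier2 (-0.43 ± 0.08, adjusted p = 0.00266) fell in both hosts. In hosts 196 and 197 the log2 changes were -0.44 and -0.48 for Dusp1 and -0.33 and -0.52 for Ier2. Neither call stayed in every fit with 1 library left out. Dusp1 was lost when Div3 of host 196 (0.123) or, in host 197, Div1 (0.332) was left out, and Ier2 when either library of host 197 was left out (0.0985 for Div1, 0.0609 for Div3). Zfp36 and Dusp4 were the members kept in all 4 such fits, and without the host block 4 of the 9 were called. Myc went from 205 and 250 CPM to 181 and 214 CPM (-0.20 ± 0.07) and did not pass (adjusted p = 0.0839).

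Genes of quiescence and recirculation leaned the same way, with 4 of 26 lower, 0 higher and a median of -0.14. Here 15.4% were called, against 6.8% over all genes. Tsc22d3, the glucocorticoid-induced leucine zipper protein, fell from 43.0 and 53.5 CPM to 25.8 and 32.1 CPM (-0.74 ± 0.09, adjusted p = 3.77e-05), and per cell from 1.36 and 2.40 to 0.828 and 1.27 mRNAs (adjusted p = 0.0461). Pik3ip1, an inhibitor of phosphoinositide 3-kinase, fell from 20.8 and 24.8 to 14.2 and 18.4 CPM (-0.48 ± 0.12, adjusted p = 0.013). The Pik3ip1 call was lost without Div3 of host 196 (0.288) or Div1 of host 197 (0.292). Btg2, an antiproliferative gene, fell by 0.26 (adjusted p = 0.00557), lost without Div1 (0.0967) or Div3 (0.0916) of host 196, and Txnip, an inhibitor of glucose uptake, by 0.18 (adjusted p = 0.0315), lost in 3 of the 4 fits (0.123 to 0.46). Tsc22d3 was the member kept in all 4.

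Ion channels and transporters included opposite changes in 2 voltage-gated calcium channels. Cacna1i, the alpha subunit of a T-type channel, fell from 35.2 and 23.7 CPM to 11.4 and 9.56 CPM (-1.47 ± 0.14, adjusted p = 1.49e-06), and per cell from 0.406 and 0.387 to 0.133 and 0.138 mRNAs (adjusted p = 2.44e-05). Cacna1s, the alpha subunit of an L-type channel, rose from 13.5 and 15.6 CPM to 29.5 and 30.7 CPM (1.05 ± 0.12, adjusted p = 1.18e-05), and per cell from 0.244 and 0.400 to 0.541 and 0.694 mRNAs (adjusted p = 0.0229). Both separated the groups without overlap. The calcium-activated potassium channel Kcnn4 rose from 24.5 and 28.3 to 36.7 and 45.5 CPM (0.64 ± 0.10, adjusted p = 0.000327), and the magnesium transporter Slc41a2 fell from 11.0 and 9.29 to 4.88 and 4.09 CPM (-1.18 ± 0.17, adjusted p = 0.000133). In all, 3 of 28 tested channel genes rose and 3 fell (21.4% called against 6.8% over all genes, median -0.02).

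Among lipid genes, Abca1, the pump that exports cholesterol, fell from 29.0 and 23.7 CPM to 12.2 and 8.84 CPM (-1.33 ± 0.13, adjusted p = 1.37e-06), and per cell from 0.320 and 0.370 to 0.136 and 0.122 mRNAs (adjusted p = 2.13e-05). In the list of cholesterol export and liver X receptor targets 4 of 16 fell and 0 rose (25% called against 6.8% over all genes, median -0.09). Smpdl3a, a phosphodiesterase induced by cholesterol, fell by 0.74 ± 0.13 (adjusted p = 0.000821, but 0.052 without Div3 of host 197). Abcg1, another export pump, fell by 0.39 ± 0.08 (adjusted p = 0.00264), lost without Div1 (0.0567) or Div3 (0.0825) of host 197, and Apoe by 0.49 ± 0.13 (adjusted p = 0.0242), lost in 3 of 4 fits (0.0976 to 0.369).

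Cholesterol synthesis and uptake had 4 of 27 members higher and 0 lower (14.8% called against 6.8% over all genes). The median of 0.16 stayed above 0 with spike-in scaling (0.08). Srebf2, the transcription factor that drives the pathway, went from 540 and 528 to 590 and 610 CPM (0.17 ± 0.05, adjusted p = 0.0383). Acat2, an acetyl-CoA acetyltransferase, went from 25.4 and 30 to 33.9 and 35.1 CPM (0.31 ± 0.08, adjusted p = 0.028). None of the 4 was called without the host block, none stayed called in all 4 fits with 1 library left out (highest adjusted p of 0.356 for Acat2 and 0.35 for Srebf2) and none was called per cell.

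In other metabolism, Impdh1, an enzyme of guanine nucleotide synthesis, fell from 16.9 and 18.7 CPM to 7.09 and 10.6 CPM (-0.99 ± 0.12, adjusted p = 2.49e-05), the single call among 30 genes of nucleotide and one-carbon synthesis. Pdk1, a kinase that inhibits pyruvate dehydrogenase, fell from 61.5 and 61.2 to 46.5 and 40.1 CPM (-0.51 ± 0.08, adjusted p = 0.000255). In its list of 25 glycolysis genes 3 rose (Ldhb, Aldoc and Gapdh), all by calls that at least 1 left-out library ended (highest adjusted p of 0.299, 0.261 and 0.408). Ldhb passed the count filter through Div3 alone, with 6 and 8 counts in Div1 and 22 and 18 in Div3. Oxidative phosphorylation had 0 of 62 called and a median of 0.07, which was -0.01 per cell. The 66 cytosolic ribosomal protein genes and the 41 genes of MYC and ribosome biogenesis also had 0 calls, with medians of -0.01 and -0.03. Fatty acid genes had 1 fall among 23 (4.35%), and amino acid transport and synthetase genes 2 rises and 1 fall among 27 (11.1%). The called share was 16% in glycolysis and 3.33% in nucleotide and one-carbon synthesis, against 6.8% over all genes.

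In the mitosis list 61 of 69 tested members had a positive log2 change, the median was 0.13 (0.05 per cell, against 0 and -0.07 over all genes), 5 members rose and 1 fell. That is 8.7% called against 6.8% over all genes, and 0 were called per cell. Cenpe, a motor protein of the kinetochore, rose from 101 and 111 CPM to 138 and 145 CPM (0.42 ± 0.06, adjusted p = 7.07e-05), with no overlap between groups and in every fit with 1 library left out. Ccnb1, the cyclin of mitotic entry, rose from 53.9 and 59.4 to 69.9 and 78.1 CPM (0.39 ± 0.08, adjusted p = 0.00422), and Plk1, the polo-like kinase, from 77.9 and 95 to 94.8 and 122 CPM (0.33 ± 0.09, adjusted p = 0.0409). Ccnb1 was lost without Div1 of host 196 (0.0792) or Div3 of host 197 (0.12), and Plk1 without these (0.36 and 0.609) or Div1 of host 197 (0.0512). Cdc25c rose by 0.36 (adjusted p = 0.037), which no fit with 1 library left out kept (0.117 to 0.247). The letters TTTGAA or, on the other strand, TTCAAA, the core of the element through which mitotic genes are held off outside mitosis, stood in the promoter window (250 bases before to 50 after the start) of 40 of the 58 mitosis genes with a RefSeq window (69%), against 14.3% of all tested genes with one.

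DNA replication genes had 1 rise and 2 falls among 58 (5.17% called, below the 6.8% over all genes, median -0.01). Dbf4, the activator of the replication kinase Cdc7, rose by 0.25 (adjusted p = 0.0116), and the licensing factor Cdt1 fell by 0.30 (adjusted p = 0.00611). Both calls were lost with 1 library left out (highest adjusted p of 0.198 and 0.144). In the list of cell cycle inhibitors and the p53 axis 0 of 26 rose and 3 fell, Btg2, above, and the D-type cyclins Ccnd2 and Ccnd3. That is 11.5% called, against 6.8% over all genes. The cyclins fell by 0.24 each (Ccnd2 adjusted p = 0.0103, Ccnd3 adjusted p = 0.0299), and all 4 fits with 1 library left out lost them (0.062 to 0.13 and 0.052 to 0.318). Uhrf1, which recruits the maintenance DNA methyltransferase, had 246 and 314 CPM in Div1 and 269 and 309 CPM in Div3 (0.04 ± 0.08, adjusted p = 0.841).

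Among 53 regulators of DNA methylation and chromatin, 1 rose and 4 fell (9.43% called against 6.8% over all genes, median 0.01). Cecr2, a bromodomain protein of a nucleosome remodeller, fell from 12.1 and 12.3 CPM to 5.49 and 5.28 CPM (-1.18 ± 0.14, adjusted p = 2.31e-05). Kdm6b, a histone H3 demethylase, went from 59.9 and 59.3 to 43.9 and 46.5 CPM (-0.40 ± 0.07, adjusted p = 0.000728), and the Polycomb protein Cbx7 from 135 and 122 to 104 and 97.8 CPM (-0.35 ± 0.05, adjusted p = 0.000226). These 3 stayed called whichever library was left out. Dnmt3a, the de novo DNA methyltransferase, rose from 200 and 211 to 263 and 246 CPM (0.31 ± 0.05, adjusted p = 0.00138, but 0.0781 without Div1 of host 196).

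Notch, Wnt and TGF-beta genes had 1 rise and 3 falls among 31 (12.9% called against 6.8% over all genes). The rise was that of Trabd2b, a protease that inactivates Wnt ligands, from 6.24 and 8.16 CPM to 23.7 and 24.6 CPM (1.73 ± 0.12, adjusted p = 2.95e-08), and per cell from 0.107 and 0.197 to 0.411 and 0.525 mRNAs (adjusted p = 3.21e-06). Those that fell belong to Notch signalling: the receptor Notch1 (-0.32 ± 0.06, adjusted p = 0.00205), its coactivator Maml2 (-0.47 ± 0.08, adjusted p = 0.00102) and its target Hes1 (-0.66 ± 0.12, adjusted p = 0.00168). Notch1 and Hes1 were each lost without Div3 of host 197 (both 0.0639), while Maml2 stayed. In the apoptosis list 3 of 29 rose and 1 fell (13.8% called against 6.8% over all genes). Bcl2l11, the death protein Bim, went from 50.9 and 65.1 to 75.7 and 85.6 CPM (0.47 ± 0.06, adjusted p = 5e-05).

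Innate response and MHC class II genes had list medians of 0.03 (NF-kB and Toll-like receptors), -0.05 (interferon response) and -0.05 (MHC class II). In the same order, 21 of 39, 16 of 46 and 4 of 16 tested members had a positive log2 change. Called shares were 5.13% (NF-kB and Toll-like receptors), 13% (interferon response) and 12.5% (MHC class II), against 6.8% over all genes. Of 39 NF-kB and Toll-like receptor genes 2 rose, Tlr9 (0.21 ± 0.04, adjusted p = 0.00562) and the adaptor Ticam1 (0.22 ± 0.06, adjusted p = 0.0354), and each fit with 1 library left out lost both (0.0641 to 0.0828 and 0.138 to 0.242). Of 46 interferon response genes 1 rose and 5 fell (median -0.05), led among the kept calls by the GTPase Gbp4, from 186 and 180 CPM to 151 in both hosts (-0.28 ± 0.05, adjusted p = 0.00136), and the factor Irf1, from 313 and 323 to 266 and 273 CPM (-0.24 ± 0.04, adjusted p = 0.00173). Among 16 genes of MHC class II 2 fell, H2-Eb2 by 0.26 and H2-Oa by 0.19 (adjusted p = 0.00386 and 0.0188). Both were lost with 1 library left out (up to 0.134 and 0.234).

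Over all tested genes 421 of the 768 calls stayed without the host block, and losses in the lists are to be read against that. Across these lists the host block decided part of the counts. Without it, called members went from 6 to 3 among migration receptors, from 9 to 4 among integrins, from 8 to 4 in B cell identity, from 6 to 3 in plasma cell genes and from 4 to 1 in quiescence. They went from 6 to 2 in the interferon response, from 7 to 4 in costimulation, from 11 to 7 among cytokines, from 4 to 1 in glycolysis and from 6 to 2 in mitosis, while marginal zone and B1 cell genes kept 7 of 9 and germinal centre genes 4 of 5. With spike-in scaling the medians of 9 lists turned from above to below 0, among them oxidative phosphorylation (-0.01), NF-kB and Toll-like receptor genes (-0.05), B cell receptor signalling (-0.05) and the unfolded protein response (-0.04), as all genes shifted by -0.08.

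Several of the steepest changes lay outside these lists. Cpd, a carboxypeptidase of the secretory pathway, rose from 10.4 and 16.0 CPM to 40.5 and 50.3 CPM (1.77 ± 0.10, adjusted p = 3.16e-09), and per cell from 0.123 and 0.269 to 0.488 and 0.746 mRNAs. Gatm, the first enzyme of creatine synthesis, rose from 2.70 and 3.81 to 10.2 and 11.5 CPM (1.72 ± 0.19, adjusted p = 6.12e-06), and Fah, the last enzyme of tyrosine breakdown, from 5.65 and 8.82 to 16.6 and 19.6 CPM (1.31 ± 0.12, adjusted p = 5.58e-07). Srgap3, a GTPase-activating protein, rose by 1.31 ± 0.17, and Phactr2, an actin regulator, by 1.18 ± 0.14 (adjusted p = 3.43e-05 and 2.41e-05). All 5 were called per cell as well. None of them overlapped between the groups, which their choice by large change with the same sign in both hosts favours.

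On the falling side Neurl3, an E3 ubiquitin ligase, fell most on log2 of (mRNAs per cell + 0.1) among called genes of 1 or more mRNA. It went from 71.4 and 63.0 CPM to 29.1 and 32.6 CPM (-1.11 ± 0.08, adjusted p = 4.99e-08), and per cell from 2.85 and 3.55 to 1.17 and 1.63 mRNAs (log2 change -1.15, adjusted p = 7.37e-05). Hmces, which shields abasic sites in DNA, fell from 17.6 and 15.0 to 7.02 and 8.44 CPM (-1.06 ± 0.14, adjusted p = 5.68e-05). Xylt1, which starts glycosaminoglycan chains, fell by 1.10 ± 0.16, Arhgap18, another GTPase-activating protein, by 1.07 ± 0.15, and the cell junction genes Marveld2 and Inadl by 1.08 ± 0.15 and 0.93 ± 0.11 (adjusted p = 0.000121, 9.6e-05, 9.93e-05 and 1.99e-05). All 6 were called per cell and stayed called in each of the 4 fits with 1 library left out.

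On the same scale and among the same genes, Snord45b and S100a8 had the next largest falls per cell, and both carry a limit. S100a8, a neutrophil protein, stood at 2.28 and 15.1 CPM in Div1 and 1.53 and 4.88 CPM in Div3, so that the Div1 library of host 197 stood apart (log2 change -1.40 ± 0.26, adjusted p = 0.00173). It was not called without Div1 of host 197 (0.481) or Div3 of host 197 (0.325). Over the 10 neutrophil markers in the table the summed level was 6.58 and 78.9 CPM in Div1 and 7.63 and 25.1 CPM in Div3, led by S100a9 at 31.6 CPM in Div1 of host 197, while Elane had 0 counts in all 4 libraries. The small nucleolar RNA gene Snord45b was called per cell (-1.14, adjusted p = 0.00012) but not on the relative scale (adjusted p = 0.24), with 0.928 and 0.936 CPM in Div1 and 0.305 and 0.594 CPM in Div3, and it passed the count filter through Div1 alone.

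The neighbouring steps are given for the same genes as values, since they share the Div1 or the Div3 libraries with this step. Mean CPM at 0, 1, 3 and 5 divisions was 13.1, 21.2, 70.5 and 141 for Cxcr3 and 4.19, 9.04, 23.8 and 55.5 for Itgax. For Tbx21 it was 28.2, 34.2, 77.8 and 159, with log2 changes of 0.29 at the first division (adjusted p = 0.0888) and 1.03 from Div3 to Div5 (2.67e-08). For Zbtb32 it was 35.0, 39.4, 107 and 311, and for Bhlhe41 12.1, 11.1, 23.1 and 93.0. Zbtb32 and Bhlhe41 were not called from Div0 to Div1 (adjusted p = 0.45 and 0.806) and were called higher from Div3 to Div5. Prdm1, at 6.41, 5.09, 6.78 and 21.8 CPM, and Sdc1, at 4.36, 2.47, 1.76 and 3.70 CPM, were called higher at Div5 against Div3 alone (adjusted p = 4.25e-06 and 0.0416).

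Other genes had another course. Flt3, a cytokine receptor kinase, stood at 88.0, 276, 425 and 366 mean CPM in Div0, Div1, Div3 and Div5, rising from Div1 to Div3 (0.62 ± 0.07, adjusted p = 1.18e-05) and falling after it (-0.22, adjusted p = 0.0218). Fas stood at 13.5, 32.6, 47.1 and 47.4 CPM. Cacna1i stood at 94.4, 29.4, 10.5 and 9.78 CPM and Impdh1 at 36.3, 17.8, 8.86 and 10.8 CPM, both without a call from Div3 to Div5 (adjusted p = 0.723 and 0.129). Fyn, at 69.5, 62.5, 38.4 and 32.7 CPM, was not called at the first division (adjusted p = 0.155), and Dusp4, at 17.0, 15.1, 7.91 and 7.69 CPM, was called at neither neighbouring step (0.338 and 0.889). Abca1 fell throughout, at 43.4, 26.4, 10.5 and 3.26 CPM, and Cxcr4 fell and then rose, at 40.0, 18.4, 11.5 and 19.9 CPM. The differences between steps were not tested.

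**Figure D5:**
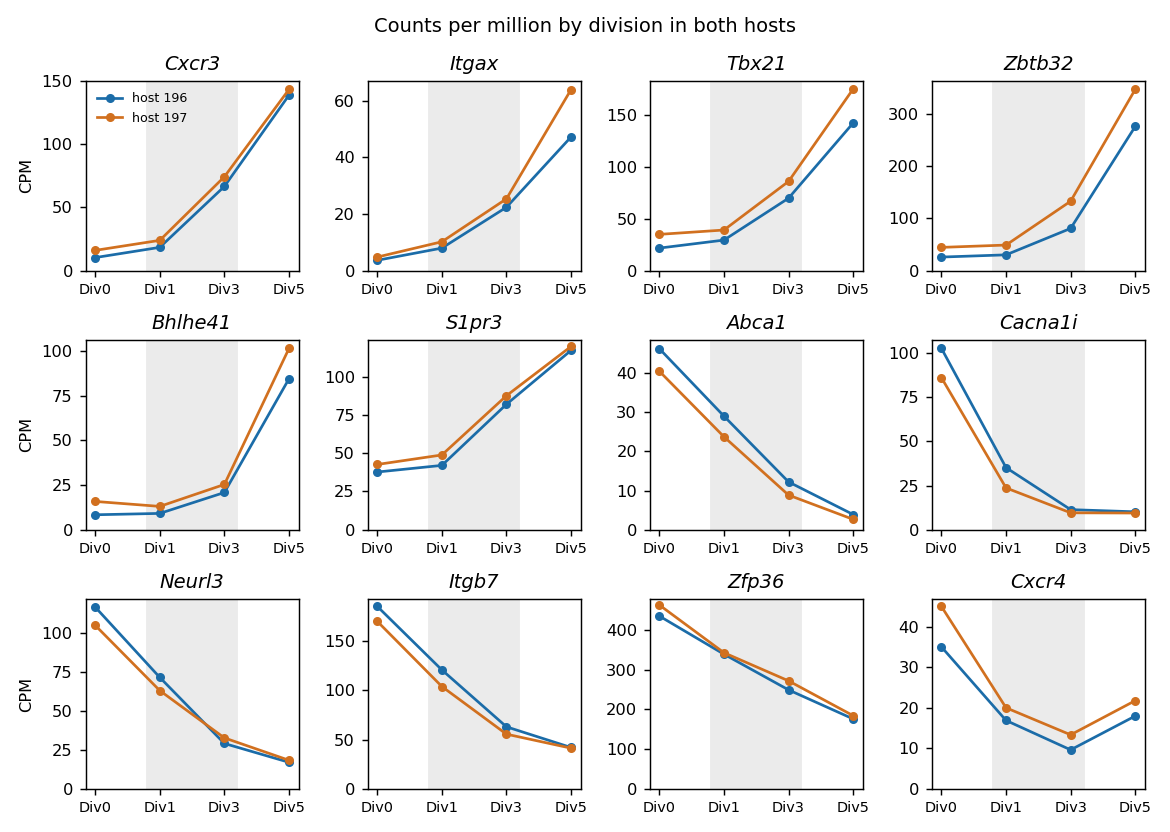
CPM (y axes, each from 0) of 12 genes in Div0, Div1, Div3 and Div5 (x axes), 1 line per host, with the step from Div1 to Div3 shaded. In Cxcr3, Itgax, Tbx21, Zbtb32, Bhlhe41 and S1pr3 both hosts are higher in Div3 than in Div1, and in the other 6 both are lower.

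Genes near the filter show how few counts some calls rest on. Of the 11298 genes, 10960 passed the filter in both groups, 143 in Div1 alone and 195 in Div3 alone, and 138 of the 143 and 177 of the 195 were higher in the group through which they passed, as the filter favours. Of the 143, 11 were called lower, and of the 195, 18 were called higher, against 3.34% lower and 3.46% higher over all tested genes. The filter favours these directions, so the counts are not read as a result. St6galnac2, a sialyltransferase, had 9 and 16 counts in Div1 and 59 and 85 in Div3 (log2 change 2.44 ± 0.28, adjusted p = 1.35e-05), and Epcam, an epithelial adhesion molecule, had 33 and 35 counts in Div1 and 4 and 12 in Div3 (-2.15 ± 0.38, adjusted p = 0.0012). Avil, Sel1l3 and Fam81a rose from 0.675 to 1.07 CPM in Div1 to 2.44 to 3.43 CPM in Div3 (log2 changes of 1.74, 1.85 and 1.56), the Fam81a call being lost in 3 of the 4 fits with 1 library left out (0.08 to 0.0967). At the threshold, 87 genes had a minimum of 10 counts in their higher group and 96, left out, had 9, such as Tmem150b with 11 and 9 counts in Div1 and 3 and 3 in Div3. A further 6250 genes had 0 counts in all 4 libraries.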

How the data were processed

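RNA was sequenced from 12 sorted samples, 6 groups in 2 hosts, as paired 50-base reads of a stranded mRNA library with 11 PCR cycles and ERCC spike-ins added before extraction, per the labels' protocols. Picard, R 3.2.2 and the mm9 build are named in the submitters' processing notes, while neither aligner nor counter is given in the sources used here. The authors deposited read counts over the exons of UCSC mm9 KnownGenes, which were the basis of every test on the relative scale. The authors also deposited RPM and FPKM values, which were used for checks only. The deposited mRNAs-per-cell signal equals the FPKM times 1 spike-in factor per library, so it carries the error of that factor.

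Genes without a symbol (0.0498 to 0.0943% of counts) were left out. Counts were fitted in edgeR 4.0.16 (R 4.3.3) with TMM factors, all 12 libraries, the group and the host, by the quasi-likelihood test with Benjamini-Hochberg adjustment over the 11298 genes tested, and called at an adjusted p under 0.05. Per-cell values were tested with limma 3.58.1 on log2 of the value plus 0.1 with the same terms. All adjusted p-values come from these fits, and those quoted for a left-out library from a refit without it. The fitting steps were tested on simulated data. Replicate numbers are host animals per the labels, so they pair the groups. Deviations from the group means in Div1 and Div3 correlated across genes at 0.339. That was the highest over the 15 pairs of groups, of which the lowest was -0.00532, and the host term was fitted over all 6 groups. A count's precision is limited by the 11541406 to 14961666 gene counts per library, and 2 hosts limit every comparison.

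The members and the 32 gene lists were chosen with earlier results of these data known. The text names anchor genes of B cell fate, the 12 largest rises and the 12 largest falls with 10 or more CPM, up to 4 called members per list by size of change, and the 4 largest changes per cell in each direction among genes of 1 or more mRNA. Lyz2, S100a9, Flt3, Tmem150b and the genes of the closing section were chosen after their values were seen. Some genes that the rule names are not reported here. Alternatives were no host block, the 4 libraries alone, other scalings (RLE, upper quartile, spike-ins), DESeq2 1.42.0, other filters, other pseudocounts and each library left out. Promoter sequences are those of RefSeq on GRCm38.p6 and were matched by Entrez gene number for 9056 of the 11298 genes. Methylation libraries of the study are not analysed here.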

Additional observations from a re-analysis of the deposited data

How the results depend on the processing

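The counts depended on the replicate block (the host term that pairs the libraries), the libraries fitted, the scaling and the tool. Against 768 genes, 421 were called with no replicate block, 2112 from the Div1 and Div3 libraries alone, 108 with spike-in scaling and 408 with DESeq2 (240 higher, 168 lower), and 306 to 439 with 1 library left out. Upper quartile scaling called 784, 372 higher and 412 lower. All 421 and all 408 were among the 768. Genes called with a log2 change of 1 or more, 95 as reported, numbered 62 with DESeq2, 45 with a filter of 50 counts and 55 to 80 with 1 library left out, of which 47 to 62 were among the 95. The 102 per-cell calls became 375 with the 4 libraries alone and 19 to 99 with 1 library left out. With no filter limma called 0 of 16383 genes per cell, with 558 at an unadjusted p under 0.05 (503 of the 11298 as reported), and the cause was not tested. The ratio of total mRNAs, 0.955, was 0.93 to 0.962 under the spike-in and gene alternatives.

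Among 117 named genes, 34 lost the call with no replicate block, 22 with DESeq2, 69 with spike-in scaling and 31 to 43 with 1 library left out. On the relative scale the uncalled changes of Pax5 turned to -0.0031 (upper quartile) and -0.077 (spike-ins), and that of Uhrf1 to -0.045 (spike-ins). With 1 library left out Pax5 ranged from -0.027 to 0.038, Prdm1 from -0.024 to 0.68 and Uhrf1 from -0.11 to 0.22. Uncalled per-cell changes also turned, with 1 library left out, over -0.14 to 0.35 for Aars, -0.088 to 0.54 for Acat2, -0.12 to 0.31 for Atf6, -0.056 to 0.37 for Dbf4, -0.066 to 0.51 for Dnmt3a, -0.15 to 0.40 for Gapdh, -0.098 to 0.40 for Gbp3, -0.59 to 0.034 for Myc, -0.32 to 0.17 for Pax5, -0.061 to 0.54 for Plk1, -0.034 to 0.38 for Prdm1, -0.13 to 0.19 for Ptprc, -0.059 to 0.50 for Slc7a1, -0.086 to 0.26 for Srebf2, -0.093 to 0.36 for Ticam1, -0.082 to 0.34 for Tlr9, -0.41 to 0.35 for Uhrf1 and -0.22 to 0.21 for Xbp1. Genes at a few counts are limited by depth.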

Other observations

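The genes here lay outside the lists or the naming rule and were chosen after their values were seen. The first 5 were called higher in Div3 and stayed so whichever library was left out. Fcrl5, an inhibitory Fc receptor-like protein of marginal zone and atypical memory B cells, went from 306 and 339 CPM (hosts 196 and 197) to 450 and 487 CPM (log2 change 0.54 ± 0.05, edgeR adjusted p = 5.58e-07). Zeb2, a zinc finger repressor, went from 58.1 and 64.2 to 99.3 and 108 CPM (0.76 ± 0.06, adjusted p = 2.47e-07), and Fgl2, a secreted fibrinogen-like protein, from 19.1 and 22.3 to 35.8 and 41.6 CPM (0.90 ± 0.09, adjusted p = 1.46e-06). Tlr3, the receptor for double-stranded RNA, went from 21.6 and 18.1 to 36.5 and 35.4 CPM (0.87 ± 0.11, adjusted p = 2.41e-05). Sirpa, the receptor for CD47, went from 32.0 and 39.0 to 60.6 and 65.6 CPM (0.82 ± 0.07, adjusted p = 6.78e-07). In all of these the Div1 and Div3 libraries did not overlap, as their choice favours, and none was called per cell. Sirpa is also a gene of macrophages and dendritic cells, whose part in its value was not tested.

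Other called genes encode nuclear, surface and cytoskeletal proteins. Hivep3, a zinc finger protein, rose from 86.4 and 102 to 199 and 174 CPM, and per cell from 0.944 and 1.58 to 2.2 and 2.38 mRNAs (limma adjusted p = 0.0166). App, the amyloid precursor protein, and Fscn1, which bundles actin, rose by 1.08 ± 0.10 and 1.06 ± 0.14 and were called per cell (adjusted p = 0.00797 and 0.0043). Cxxc5, which binds unmethylated CpG, fell from 60.0 and 54.3 to 34.5 and 26.4 CPM (-0.92 ± 0.08, edgeR adjusted p = 2.79e-07), and Rnf144a, a ubiquitin ligase, from 60.6 and 60.0 to 34.2 and 30.3 CPM (-0.91 ± 0.08, adjusted p = 8.01e-07). The kinase Zap70 fell from 8.35 and 8.29 to 4.65 and 2.70 CPM (-1.21 ± 0.20, adjusted p = 0.0007, but 0.0589 without Div3 of host 197). Zap70 is known mainly from T cells, whose markers summed to 203 to 209 CPM in Div1 and 216 to 221 CPM in Div3, of which Cd2 and Lck, at 144 to 167 and 47.4 to 54.4 CPM, made up most. Cd3e went from 5 and 6 counts (hosts 196 and 197) to 6 and 3, Cd3d from 4 and 8 to 5 and 2, Cd3g from 3 and 3 to 3 and 0 and Thy1 from 7 and 15 to 9 and 5. Of the 11 T cell markers, 7 were higher in Div3 in host 196 and 2 in host 197, and their part in the Zap70 value was not tested.

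Some called genes neighbour each other in the RefSeq annotation. Tbkbp1, next to Tbx21, rose from 2.02 and 3.21 to 5.26 and 6.92 CPM (1.21 ± 0.21, adjusted p = 0.00104), and Mapk11 and Mapk12, neighbouring kinase genes, fell by 0.57 ± 0.07 and 1.38 ± 0.27 (adjusted p = 3.02e-05 and 0.00299). The Mapk12 call was lost without Div1 of host 197 (0.0945). No count of such pairs was tested.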
